A study of Mus musculus with 16 samples.

Results

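A list of 42 genes of the interferon response and of antigen presentation was followed through a time course of c-Raf induction in mouse embryonic stem cells (ESCs). The genes were chosen by name, with earlier results of these data known, and each was measured by its probe with the highest mean signal. Of the 42 genes, 41 had a probe (Mx2, an antiviral GTPase gene, had none) among 20972 genes on the array, and 37 were bright enough to be tested, among 15659 tested genes. At 24 h of induction the genes did not move in 1 direction: 5 were higher and 11 lower than before induction. Together they were 43.2% of the 37, beside 23.7% of all tested genes (10.8% higher and 12.9% lower). The 5 include Rsad2, which entered the test only through its 24h arrays, so its place among them follows from the filter. Bst2, Tap1 and Ddx58 were among those that rose, and Xaf1, Oas1a, Irf1 and the 3 Ifitm genes among those that fell. In inhibited, uninduced cells, Bst2 and Tap1 were lower and Xaf1, Ifitm1, Ifitm2 and B2m higher than in vehicle-treated cells. That was 16.2% of the 37, beside 3.5% of all tested genes. These calls against vehicle, and those of Ddx58, Tap1, Oas1a and Irf1 at 24 h, were lost when certain single arrays were left out. Median centring ended those of Ddx58 and Tap1 at 24 h, and of Bst2, Tap1, Ifitm2 and B2m against vehicle. None of the calls held under a second record of which array belongs to which sample, described below. In that record the groups from 2 h of induction on lie on 1 slide and all earlier groups on the other. Later times and slide therefore cannot be told apart in it.

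As background, cells that detect foreign nucleic acid or receive an interferon switch on a large set of genes through factors such as IRF1 and a complex with STAT2 and IRF9, which binds the interferon-stimulated response element (ISRE). A further promoter element of the response is the gamma-activated site (GAS). The products sense viral RNA, block virus entry and replication, and load peptides on MHC class I molecules for display to T cells. Pluripotent cells are known for a weak interferon response and little MHC class I.

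The line was E14tg2a, and the series' design text gives it a c-Raf fusion that becomes active with tamoxifen. All 8 groups, of 2 arrays each, share this line, growth with serum and LIF on gelatin, and no feeder layer is named. DMSO cells received vehicle only (their description calls them untreated). The 0h cells had 24 h of 250 nM PD173074, an FGF receptor inhibitor, and no inducer. The 30m, 1h, 2h, 4h, 8h and 24h cells had the same pretreatment and then 250 nM 4-hydroxytamoxifen (4OHT) for the time in their name, with the inhibitor present. Cells without the fusion given 4OHT were not analysed here, so an effect of 4OHT itself and one of the kinase cannot be told apart. Apart from 0h, no uninduced group had the inhibitor. Longer time in inhibitor and culture therefore cannot be told apart from induction in the later groups. The labels do not say whether replicates were separate cultures, so every p-value rests on the spread of these pairs, and that spread may be technical only.

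All signals below are log2 of the scanner's processed signal minus the 75th percentile of that array, so 0 is that percentile. Values of different genes come from different probes and are not set against each other. A change is called where limma's moderated test over 8 groups gave a Benjamini-Hochberg adjusted p under 0.05 within that comparison. Every comparison with 0h uses the same 2 arrays, and so do the comparisons with DMSO, so their values are given side by side only. The fit with the replicate number as a block (also the slide) is given as counts for each comparison, and by gene for most of the calls it changes.

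The record of which array belongs to which sample differs between the authors' value table and the attachment of their scanner files for 8 of the 16 arrays. The value table is used here, as in all values below. With the scanner attachment none of the 35 calls below held: 5 changed sign and 29 fell short of the threshold, and 1 gene was no longer tested. Only Ifi27 was then called, higher at 4h (2.02, limma adjusted p = 0.0291) and 8h (1.89, limma adjusted p = 0.0349). Spots well above background made up 54.9 to 60.0% on slide 1, which by the value table holds replicate 1 of every group, and 61.5 to 67.2% on slide 2. Replicates correlated at 0.982 to 0.990 over genes. All 10 ESC marker genes were well above background on all 16 arrays, with mean levels of 4.68 to 5.92. At 24h against 0h, 4 of those 10 were lower (Nanog, Zfp42, Esrrb and Sall4) and 1 higher (Utf1), while 23.7% of all tested genes were called. Of 9 measured blood and immune cell markers, 6 were well above background on all arrays, and the myeloid genes Lyz2 and Tyrobp on none. The list's mean level was -2.89 and -2.29 in DMSO, -2.89 and -2.56 at 0h, -2.34 and -2.46 at 8h and -2.21 and -2.30 at 24h. Of 7 tested, Ptprc (CD45) was called, higher at 8h (1.30 ± 0.32, limma adjusted p = 0.0396). Among 10 fibroblast markers, 7 were tested, and Lum, Postn and Fap were well above background on none of the arrays. Pdgfra, which passed the filter only through its 24h arrays, was at least 2.71-fold higher at 24h than at 0h and at least 2.27-fold higher than in DMSO, and Pdgfrb at least 3.23-fold lower at 4h (limma adjusted p = 0.0417). Of 5 endothelial markers, 4 were tested, Cdh5 was well above background on none of the arrays, and Tek was lower at 24h than at 0h (-2.23 ± 0.36, limma adjusted p = 0.00183) and than in DMSO (-1.52 ± 0.36, limma adjusted p = 0.0230). The part that other cells played in the values below was not tested.

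To show what lies before the genes on which the results turn, 280 bases are printed for 6 of them, from 250 before to 30 after the start that RefSeq annotates (GRCm38.p6, written 5′ to 3′ on the gene's strand). Bst2, Ddx58 and Tap1 rose at 24h against 0h and Oas1a, Ifitm3 and Xaf1 fell. Capitals mark every match to the ISRE letters GAAANNGAAA on either strand, overlapping matches included.
Bst2, chr8:71537443-71537722, minus strand: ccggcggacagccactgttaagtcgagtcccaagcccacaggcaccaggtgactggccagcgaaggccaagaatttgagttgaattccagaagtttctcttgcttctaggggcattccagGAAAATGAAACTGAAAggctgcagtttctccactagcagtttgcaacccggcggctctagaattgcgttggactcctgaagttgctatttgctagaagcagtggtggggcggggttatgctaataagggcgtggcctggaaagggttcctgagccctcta
Ddx58, chr4:40239796-40240075, minus strand: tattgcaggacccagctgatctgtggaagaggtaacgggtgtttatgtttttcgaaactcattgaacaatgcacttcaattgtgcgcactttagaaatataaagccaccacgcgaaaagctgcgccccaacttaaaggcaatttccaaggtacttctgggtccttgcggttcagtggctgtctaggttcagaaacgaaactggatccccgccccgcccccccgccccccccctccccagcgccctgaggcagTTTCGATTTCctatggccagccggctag
Oas1a, chr5:120907496-120907775, minus strand: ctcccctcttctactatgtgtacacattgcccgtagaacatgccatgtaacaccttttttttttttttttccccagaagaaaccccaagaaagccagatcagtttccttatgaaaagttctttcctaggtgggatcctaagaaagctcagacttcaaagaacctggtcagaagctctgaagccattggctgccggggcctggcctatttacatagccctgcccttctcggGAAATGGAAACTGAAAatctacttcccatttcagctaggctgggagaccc
Ifitm3, chr7:141010715-141010994, minus strand: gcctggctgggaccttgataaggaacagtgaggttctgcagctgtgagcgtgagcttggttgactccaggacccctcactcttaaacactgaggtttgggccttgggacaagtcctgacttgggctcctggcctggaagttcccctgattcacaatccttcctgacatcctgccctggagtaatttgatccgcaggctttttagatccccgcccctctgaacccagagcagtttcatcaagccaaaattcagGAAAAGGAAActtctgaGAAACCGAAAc
Tap1, chr17:34187306-34187585, plus strand: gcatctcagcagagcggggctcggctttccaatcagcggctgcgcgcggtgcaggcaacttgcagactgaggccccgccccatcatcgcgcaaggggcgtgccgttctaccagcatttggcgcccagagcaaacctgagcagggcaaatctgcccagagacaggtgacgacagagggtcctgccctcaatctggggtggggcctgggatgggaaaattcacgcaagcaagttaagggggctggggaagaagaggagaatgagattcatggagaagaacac
Xaf1, chr11:72301379-72301658, plus strand: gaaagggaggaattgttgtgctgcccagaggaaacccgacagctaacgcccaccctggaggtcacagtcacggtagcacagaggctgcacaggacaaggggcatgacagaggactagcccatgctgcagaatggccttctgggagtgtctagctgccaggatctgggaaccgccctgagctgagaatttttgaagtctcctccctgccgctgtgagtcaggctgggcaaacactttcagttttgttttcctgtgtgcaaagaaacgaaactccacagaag
Bst2 and Oas1a each held a pair of overlapping matches, and Ifitm3 and Ddx58 held theirs just after the start. Tap1 and Xaf1 held none, which says only that these letters are not in this window. The start of Psmb9 lies 226 bases from that of Tap1, on the opposite strand.

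Over the windows of 300 bases (250 before to 50 after a start), the ISRE letters occurred in 16 of the 34 listed genes that the table holds (47.1%), against 3.99% of all 27025 genes in it. The GAS letters TTCNNNGAA, also read on both strands, occurred in 10 of the 34 (29.4%) and in 9.55% of all genes. The listed genes were chosen by name for the response that these elements serve. Their shares are therefore a description of the list and not a result of these data. At 24h against 0h, ISRE matches were present in Ddx58, Bst2 and Rsad2, 3 of the 4 higher genes with a window (Rsad2 entered the test only through its 24h arrays, as given below), and in Ifitm2, Ifitm3, Oas1a and Eif2ak2, 4 of the 11 lower genes. Of the 15 with a window that were not called, 6 held a match. A match is a description of the letters and was not tested for binding.

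**Figure D1:**
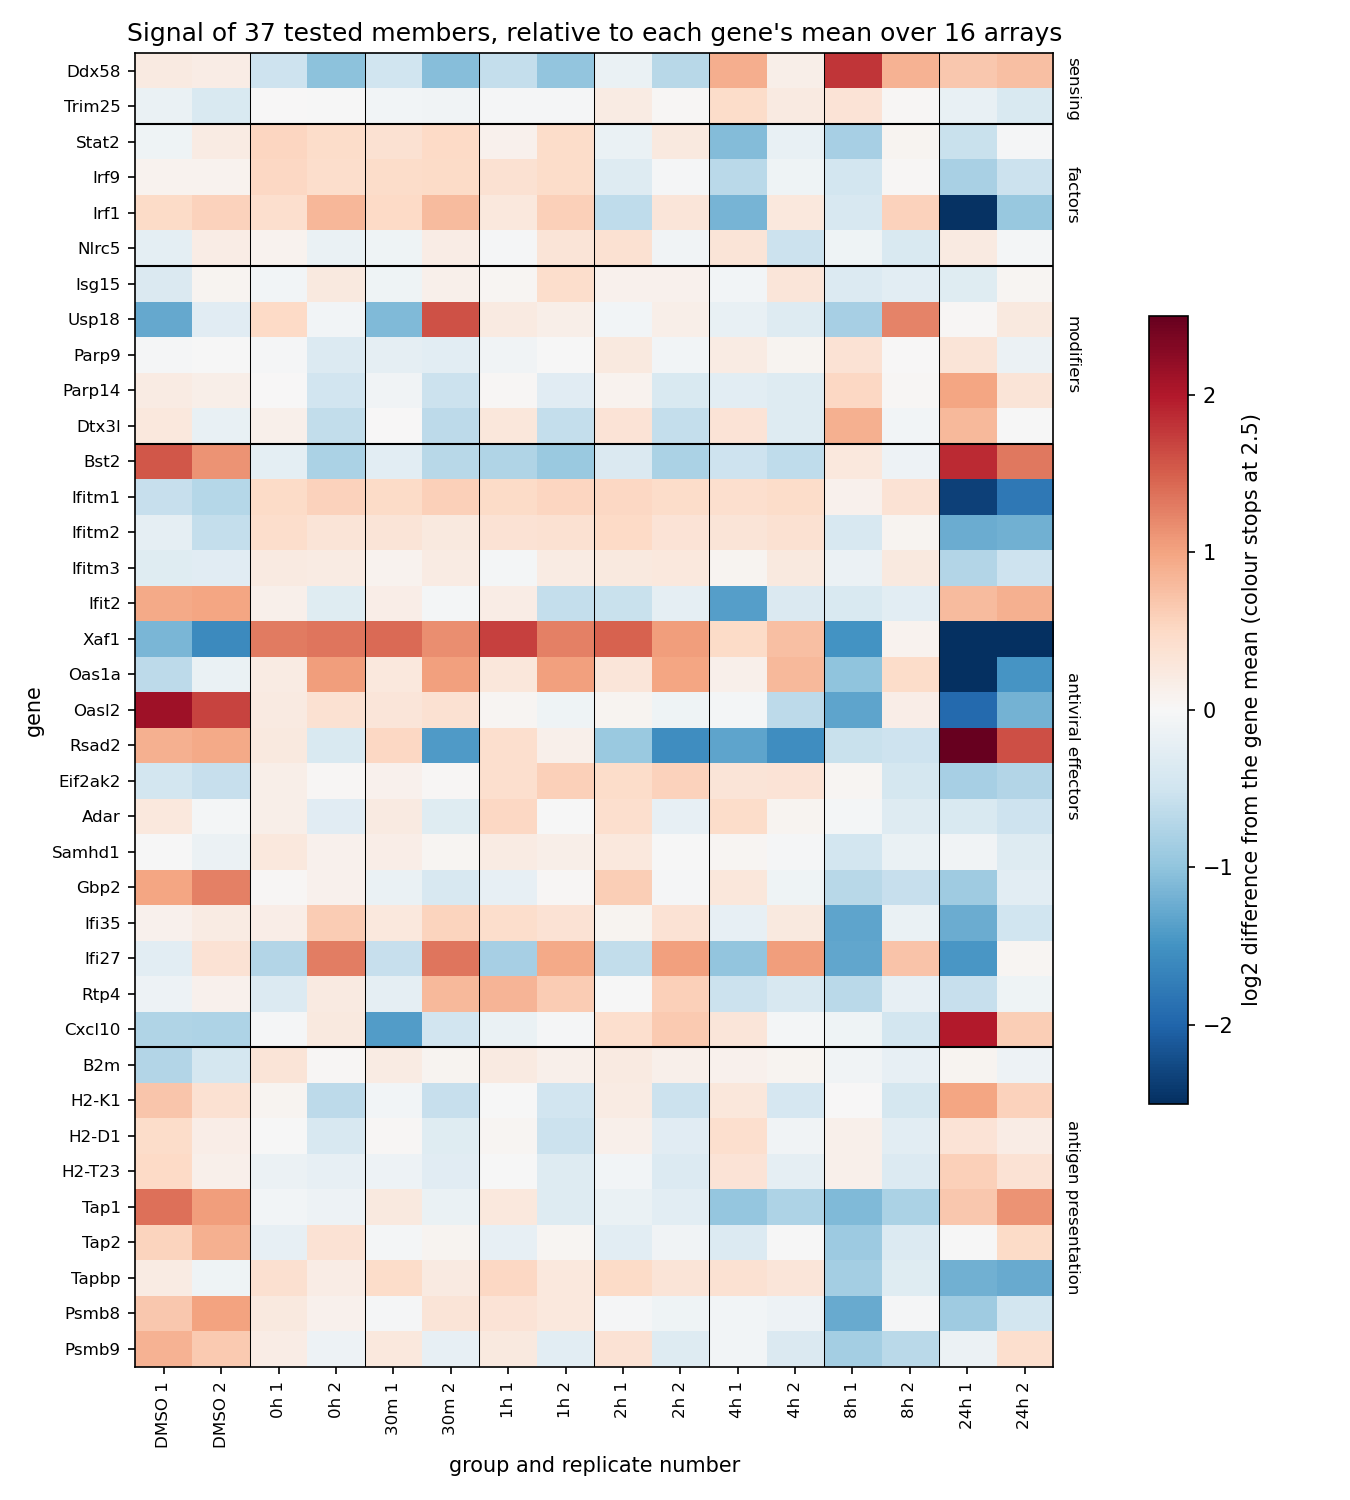
Signal of the 37 tested genes (rows, grouped by role) on the 16 arrays (columns, by group and replicate number), as the log2 difference from each gene's mean over all arrays; red is above and blue below that mean, and the colour stops at 2.5. Bst2 and Tap1 are high in DMSO and at 24h, Oasl2 is highest in DMSO, and Xaf1 is high from 0h to 2h. The 24h arrays hold the lowest values of Ifitm1, Xaf1 and Oas1a.

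Against DMSO, 24 h of the inhibitor alone went with 4 higher and 2 lower genes, or 16.2% of the 37, while 3.5% of all tested genes were called (2.22% higher and 1.28% lower). The genes that rose were Xaf1, Ifitm1, Ifitm2 and B2m, and those that fell were Bst2 and Tap1. The list's median change was -0.01, as was that of all tested genes (-0.01). With the replicate block 7 were higher and 9 lower, against 15% of all genes. Leaving out replicate 1 of DMSO, or replicate 2 of 0h, ended all of these calls, and leaving out replicate 1 of 0h all but Bst2 and Ifitm1. The number of calls over all genes also fell in each of these fits. With arrays centred on the median, only Ifitm1 and Xaf1 were called, both higher. Without the filter on dim probes Ifitm2 was not called (limma adjusted p = 0.0556).

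In the first hours of induction no listed gene was called. At 30m, 1h and 2h the counts were 0 by limma with and without the block, and 1, 2 and 2 genes had an unadjusted p under 0.05. In all, 0%, 0% and 0.115% of tested genes were called at these times, and 0%, 0.0192% and 0.479% with the block. At 4h the count was again 0, with 6 genes at an unadjusted p under 0.05, against 3.19% of all genes. The block called 5 genes at 4h, Ddx58, Trim25 and H2-D1 higher and Stat2 and Irf9 lower, against 16.1% of all genes. Without replicate 2 of 4h, Irf9 was called (fell by 1.16, limma adjusted p = 0.0274).

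At 8h Ddx58 was higher and Tapbp lower, 2 of 37 (5.41%) against 6.65% of all genes (3.12% higher and 3.53% lower), a share near the background. The list's median was -0.39 against -0.04 for all tested genes, and 28 of the 37 differences were negative. With the block, 4 were higher and 11 lower, against 21% of all genes. The number of calls, in the list and over all genes alike, rose without replicate 2 of 8h. It fell in both without replicate 1 of 8h or replicate 2 of 0h, which ended the calls of Ddx58 and Tapbp. Without replicate 1 of 0h, with median centring, and without the filter on dim probes, Ddx58 alone was called.

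By 24h, 16 of the 37 (43.2%) differed from 0h, 5 higher and 11 lower, against 23.7% of all genes (10.8% higher and 12.9% lower). The higher genes were Bst2, Rsad2, Ddx58, Tap1 and Parp14. Rsad2 entered the test only because it cleared the background on the 24h pair, so its place here follows from the filter, and 4 higher genes remain beside it. Xaf1, Oas1a, Ifitm1, Irf1, Oasl2, Ifitm2, Tapbp, Ifi35, Irf9, Eif2ak2 and Ifitm3 were lower. The median was -0.29 against -0.01. The block gave 10 higher and 17 lower, against 39.5% of all genes. Without replicate 2 of 0h or replicate 1 of 24h the number of calls fell, in the list and over all genes alike. With median centring the split was 2 higher and 10 lower: Ddx58 (adjusted p = 0.0936), Parp14 (0.308), Tap1 (0.134) and Eif2ak2 (0.0504, all by limma) lost their calls. Without the filter on dim probes Parp14 lost its call (limma adjusted p = 0.0600).

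Set against DMSO, the 24h cells had 2 higher and 9 lower genes, 29.7% of the 37, against 11.4% of all genes (6.56% higher and 4.8% lower). Cxcl10 and B2m were higher, and Oasl2, Xaf1, Irf1, Gbp2, Psmb8, Ifitm1, Tapbp, Ifitm2 and Irf9 lower. The median was -0.31 against -0.03, and the block gave 4 higher and 13 lower, against 26% of all genes. Ifitm1, Oasl2, Gbp2 and Tapbp were called without each of the 4 arrays in turn, and they were the only 4 left without replicate 1 of DMSO or replicate 1 of 24h. Median centring ended the calls of Irf9 (limma adjusted p = 0.109), Ifitm2 (0.152) and B2m (0.432), and testing without the filter those of Irf9 (0.0647) and B2m (0.0604).

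**Figure D2:**
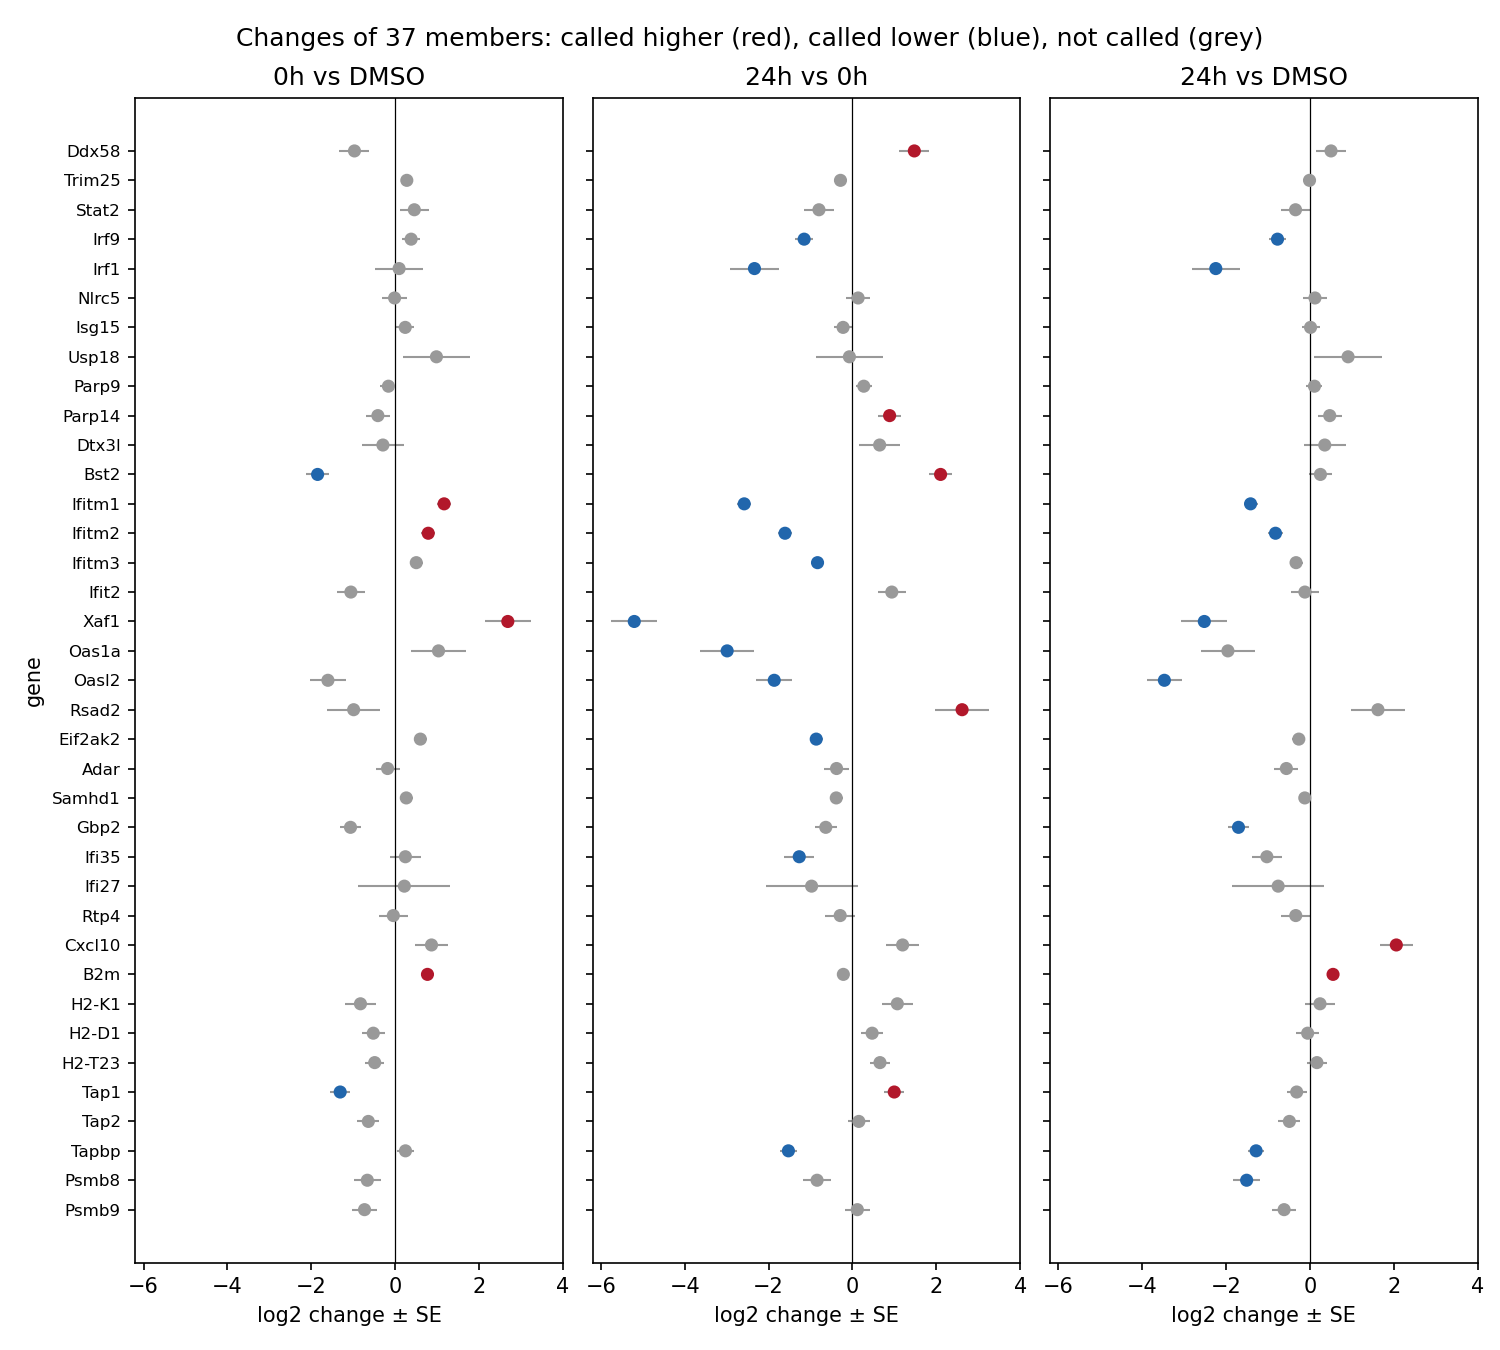
Log2 change ± SE from limma of each of the 37 tested genes (rows) for 0h against DMSO, 24h against 0h and 24h against DMSO; red points were called higher, blue points lower and grey points not called. Bst2 and Tap1 lie below 0 in the left panel, above 0 in the middle panel and are grey on the right, while Ifitm1, Ifitm2 and Xaf1 are red, then blue, then blue. The left and middle panels share the 0h arrays.

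Among the sensors, Ddx58 encodes RIG-I, the cytosolic sensor of uncapped viral RNA, and its promoter is printed above. The signal of Ddx58 was 3.19 and 3.15 in DMSO, 2.45 and 1.95 at 0h, 2.46 and 1.90 at 30m, 2.36 and 1.98 at 1h, and 2.80 and 2.27 at 2h. It then reached 3.87 and 3.11 at 4h, 4.74 and 3.83 at 8h, and 3.64 and 3.71 at 24h. From 4h on, both arrays of each group lay above every array of 0h, 30m, 1h and 2h, and the highest pair was that of 8h. Ddx58 rose by 2.09 ± 0.36 (SE, n = 2 per group, limma adjusted p = 0.0104) at 8h, which is 4.25-fold, and by 1.48 ± 0.36 at 24h (limma adjusted p = 0.0136). The difference between 0h and DMSO was -0.97 ± 0.36 (adjusted p = 0.185, with the block 0.0177), and that of 4h from 0h was 1.29 (adjusted p = 0.0828, with the block 0.00692, both by limma). The 24h arrays were 0.51 ± 0.36 above DMSO, which was not called (limma adjusted p = 0.432). A second probe of Ddx58, bright on all arrays, gave 1.93 at 8h and 1.53 at 24h. The 8h call was lost without replicate 1 of 8h or replicate 2 of 0h (adjusted p up to 0.106), and the 24h call without either 24h array or replicate 2 of 0h (up to 0.0974).

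Trim25, the ubiquitin ligase that activates RIG-I, stayed between 5.66 and 6.50 on all 16 arrays. It was called only with the block, at 4h (0.34, limma adjusted p = 0.0454) and 24h (-0.29, limma adjusted p = 0.0449). Ifih1, which encodes the RNA sensor MDA5, was well above background on 0 arrays, so that it has no measured level here.

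Of the transcription factors, Irf9 and Stat2 encode parts of the complex that binds the ISRE, and Irf1 encodes a factor that acts on many interferon targets and on MHC class I genes. Irf9 stood at 1.28 and 1.28 in DMSO, 1.69 and 1.63 at 0h, 1.64 and 1.66 at 30m, and 1.56 and 1.65 at 1h. Its later values were 0.86 and 1.17 at 2h, 0.50 and 1.07 at 4h, 0.73 and 1.21 at 8h, and 0.37 and 0.65 at 24h. Every array from 2h on lay below every 0h array, and the 24h arrays also lay below both DMSO arrays. Irf9 fell by 1.15 ± 0.21 from 0h to 24h (SE, n = 2, limma adjusted p = 0.00361), a call that held without each of the 4 arrays in turn. At 24h it also lay below DMSO (-0.77 ± 0.21, limma adjusted p = 0.0429), a call lost without any 1 of the 4 arrays (adjusted p up to 0.284). The changes at 4h (-0.87) and 8h (-0.69) were called only with the block (limma adjusted p = 0.00982 and 0.0170, against 0.0555 and 0.0814 without it).

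Irf1 read 3.33 and 3.43 in DMSO, 3.28 and 3.67 at 0h, 3.34 and 3.64 at 30m, 3.11 and 3.45 at 1h, 2.21 and 3.15 at 2h, 1.69 and 3.11 at 4h, 2.45 and 3.42 at 8h, and 0.37 and 1.90 at 24h. Replicate 1 was the lower of the pair in every group, by little up to 1h and by more from 2h on, and both 24h arrays lay below those of DMSO and 0h. Irf1 fell by 2.34 ± 0.57 from 0h to 24h (SE, n = 2, limma adjusted p = 0.0147), a 5.06-fold drop, and lay below DMSO in the 24h cells (-2.24 ± 0.57, limma adjusted p = 0.0327). The first call was lost without replicate 1 of 24h or replicate 2 of 0h (adjusted p up to 0.133), and the second without replicate 1 of 24h or either DMSO array (up to 0.275). Another Irf1 probe, well above background on 1 array only, gave 0.18 for 24h against 0h.

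Stat2 measured 1.37 and 1.68 in DMSO, 2.02 and 1.95 at 0h, 0.40 and 1.29 at 4h, 0.64 and 1.55 at 8h, and 0.92 and 1.45 at 24h. The arrays from 4h on lay below those of 0h, with replicate 1 always the lower. It was called only with the block, at 4h (-1.14), 8h (-0.88) and 24h (-0.80), with limma adjusted p = 0.0120, 0.0232 and 0.0180. The 24h difference from DMSO was -0.34 ± 0.35 and was not called. Nlrc5, the activator of MHC class I genes, lay between -4.44 and -3.52 on all arrays and differed by 0.13 ± 0.30 between 24h and 0h (limma adjusted p = 0.813). Irf7, the factor that amplifies type I interferon, was well above background on 5 arrays, never on both of a group, and was not tested.

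Among the modifiers, Parp14, an ADP-ribosyltransferase, went from 0.49 and -0.01 at 0h to 1.00 and 0.51 at 8h and 1.45 and 0.79 at 24h, with 0.68 and 0.62 in DMSO. Both 24h arrays were above all DMSO and 0h arrays. The rise from 0h to 24h was 0.89 ± 0.28 (SE, n = 2, limma adjusted p = 0.0454), and it was lost without either 0h array or replicate 1 of 24h (adjusted p up to 0.314). With the block Parp14 was also higher at 8h (0.52, limma adjusted p = 0.0393) and at 24h against DMSO (0.47, limma adjusted p = 0.0454). Dtx3l, an E3 ligase that works with Parp9, was called only with the block, at 8h (0.66, limma adjusted p = 0.00763) and 24h (0.65, limma adjusted p = 0.00306), and its second probe gave 0.68 and 0.46. Parp9 itself ranged from 0.34 to 1.05, and its change at 24h was 0.27 ± 0.19 (limma adjusted p = 0.365).

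Isg15, the ubiquitin-like protein that is among the best-known interferon targets, kept a narrow range. Its signal was -1.75 and -1.31 in DMSO, -1.45 and -1.14 at 0h, -1.72 and -1.64 at 8h, and -1.69 and -1.34 at 24h. The 24h pair overlapped both control pairs, at -0.22 ± 0.21 from 0h and 0.02 ± 0.21 from DMSO (limma adjusted p = 0.527 and 0.976). With the block it fell by 0.39 at 8h (limma adjusted p = 0.0471). Usp18, the protease that removes Isg15, was well above background on 7 arrays, and its change at 24h was -0.07 ± 0.81.

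Among the antiviral effectors, Bst2 encodes tetherin, which holds budding virus particles at the cell surface, and its promoter with a pair of ISRE matches is printed above. Bst2 measured 4.48 and 4.05 in DMSO, 2.69 and 2.15 at 0h, 2.67 and 2.23 at 30m, 2.18 and 2.02 at 1h, and 2.58 and 2.13 at 2h. The later values were 2.42 and 2.29 at 4h, 3.21 and 2.81 at 8h, and 4.79 and 4.25 at 24h. DMSO and 24h overlapped at the top, 0h to 4h lay at the bottom, and 8h stood between them with both arrays above every 0h array. Inhibited cells were 1.85 ± 0.27 below DMSO, a 3.60-fold drop (SE, n = 2, limma adjusted p = 0.00933), and Bst2 then rose by 2.10 ± 0.27 from 0h to 24h, or 4.29-fold (limma adjusted p = 0.000622). The 24h level differed from DMSO by 0.25 ± 0.27 and was not called (limma adjusted p = 0.651). At 8h the change of 0.59 was called only with the block (limma adjusted p = 0.00994). The 24h call held without each of the 4 arrays in turn, with adjusted p up to 0.00809, while the drop against DMSO was lost without replicate 1 of DMSO or replicate 2 of 0h (up to 0.0854).

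The Ifitm genes encode small membrane proteins that block virus entry, and Ifitm1 and Ifitm3 are also known from early germ cells. They are close relatives, as are the Oas1 genes, so a probe may also take up RNA of a paralog. Ifitm1 read 6.24 and 6.11 in DMSO, from 6.93 to 7.42 on the arrays from 0h to 8h, and 4.49 and 5.03 at 24h. The 3 levels did not overlap. Ifitm1 was 1.17 ± 0.17 higher at 0h than in DMSO (SE, n = 2, limma adjusted p = 0.00768), and fell by 2.58 ± 0.17 from 0h to 24h, or 5.99-fold (limma adjusted p = 2.57e-05). At 24h its difference from DMSO was -1.41 ± 0.17 (limma adjusted p = 0.00114). Both 24h calls held without each array in turn, and the rise over DMSO was lost without replicate 1 of DMSO or replicate 2 of 0h (adjusted p up to 0.0651).

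Ifitm2 had 5.05 and 4.68 in DMSO, 5.70 and 5.60 at 0h, 4.87 and 5.33 at 8h, and 4.02 and 4.07 at 24h. The 24h arrays were the lowest, and 8h overlapped DMSO. The rise from DMSO to 0h was 0.79 ± 0.17 (limma adjusted p = 0.0329), and Ifitm2 fell by 1.61 ± 0.17 from 0h to 24h (limma adjusted p = 0.000217), which held without each array in turn. Against DMSO the 24h change was -0.82 ± 0.17 (limma adjusted p = 0.0129). The 0h call was lost without any 1 of its 4 arrays (adjusted p up to 0.178), and the call against DMSO at 24h without replicate 1 of either group (up to 0.114). Ifitm3, whose matches to the ISRE are shown above, measured 3.97 and 3.99 in DMSO, 4.49 and 4.48 at 0h, and 3.55 and 3.76 at 24h. Ifitm3 fell by 0.83 ± 0.15 from 0h to 24h (limma adjusted p = 0.00367), also without each array in turn. Its rise at 0h over DMSO, 0.50 ± 0.15, was called only with the block (limma adjusted p = 0.0166, against 0.115 without).

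**Figure D3:**
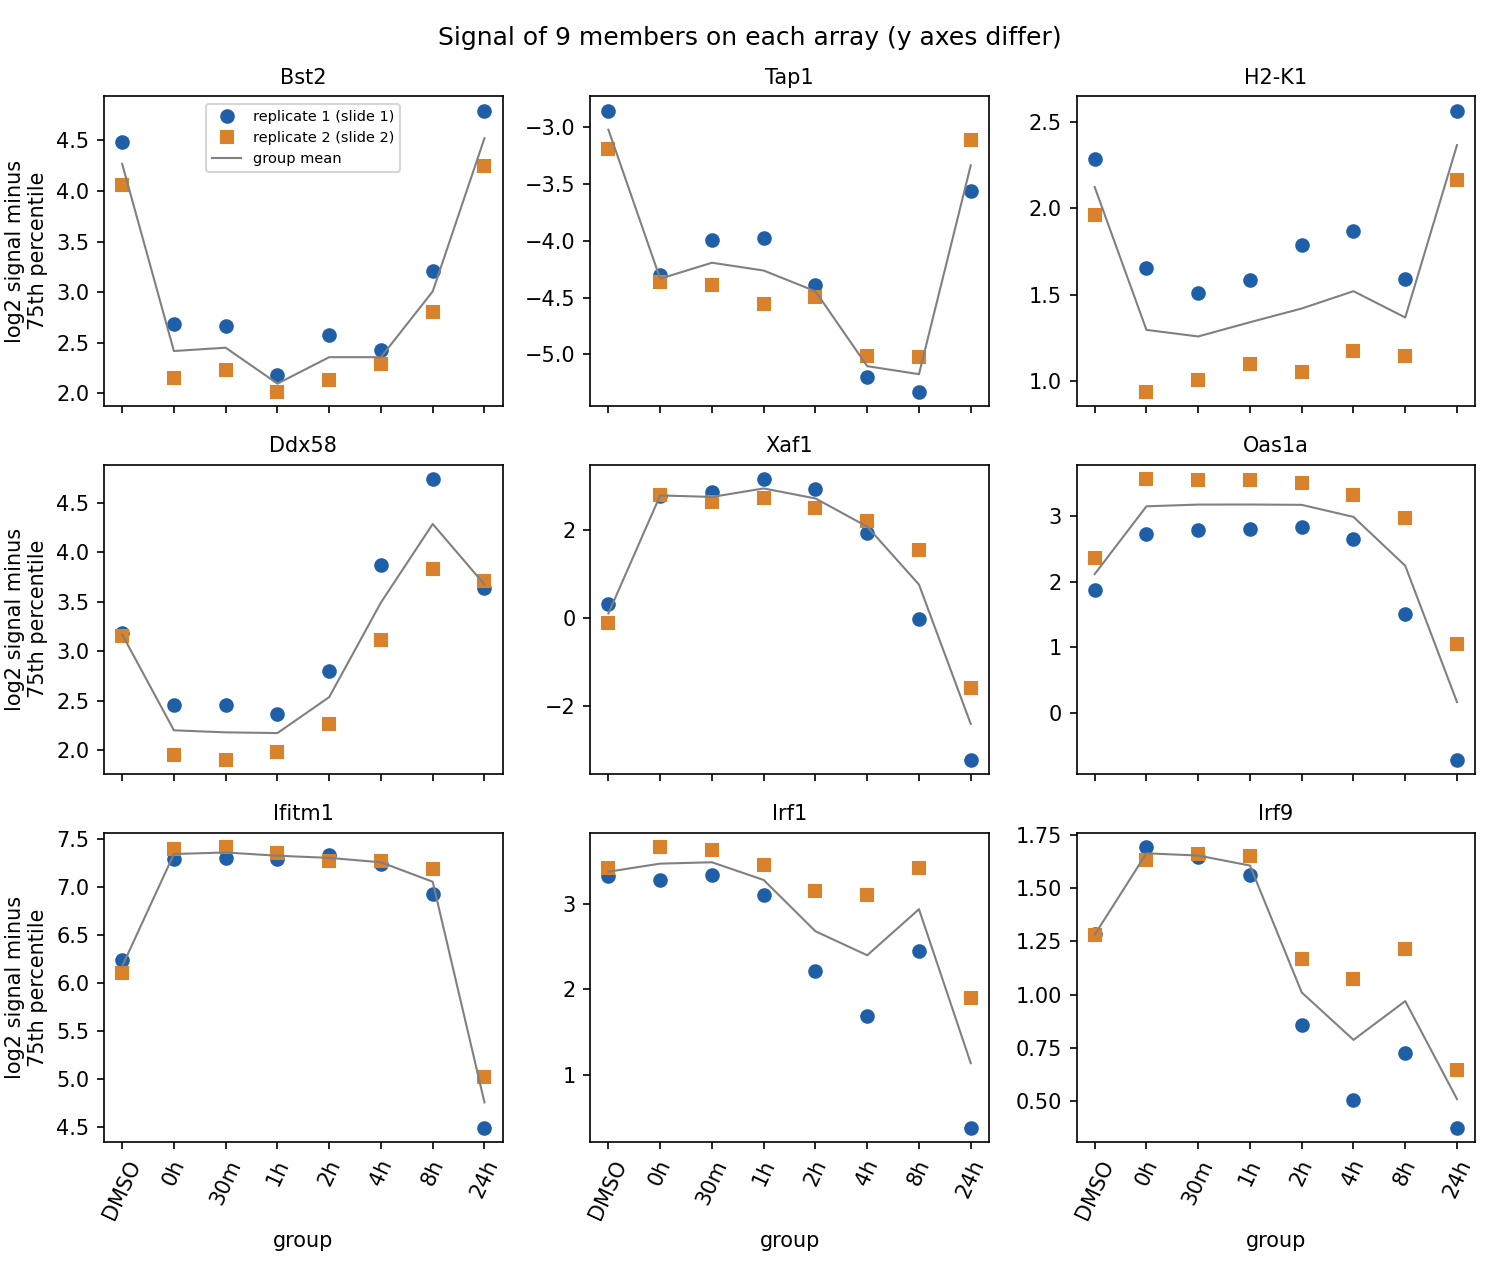
Signal of 9 genes (log2 minus the array's 75th percentile; y axes differ) on each array by group; circles are replicate 1 on slide 1, squares replicate 2 on slide 2, and the grey line joins the group means. Bst2, Tap1 and H2-K1 are high at both ends of the series, Xaf1, Oas1a and Ifitm1 are high in the middle and lowest at 24h, and Irf9 drops from 2h on.

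Xaf1, a gene for a protein that counters the apoptosis inhibitor XIAP, had the widest span of the 37, from -3.23 to 3.18. It stood at 0.33 and -0.12 in DMSO, 2.78 and 2.81 at 0h, 2.88 and 2.64 at 30m, 3.18 and 2.73 at 1h, and 2.94 and 2.51 at 2h. After that it read 1.95 and 2.22 at 4h, -0.02 and 1.55 at 8h, and -3.23 and -1.59 at 24h. The 4h arrays lay below all earlier induced arrays, the 8h pair was wide, and the 24h arrays lay below DMSO. Xaf1 was 2.69 ± 0.55 higher at 0h than in DMSO, or 6.45-fold (SE, n = 2, limma adjusted p = 0.0288), fell by 5.21 ± 0.55 from 0h to 24h, or 36.9-fold (limma adjusted p = 0.000222), and was 5.73-fold below DMSO at 24h (limma adjusted p = 0.0165). At 8h the change of -2.03 was called only with the block (limma adjusted p = 0.0289, against 0.0540 without). A second probe gave 2.51, -5.88 and -3.37 for the 3 comparisons. The fall from 0h held without each array in turn, the rise was lost without any 1 of its 4 arrays (adjusted p up to 0.149), and the call against DMSO at 24h without replicate 1 of either group (up to 0.151).

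Oas1a and Oasl2 belong to the oligoadenylate synthetase family, whose enzymes activate RNase L, although mouse Oasl2 also carries ubiquitin-like domains. Oas1a measured 1.87 and 2.36 in DMSO, 2.73 and 3.57 at 0h, 2.80 and 3.56 at 30m, 2.65 and 3.32 at 4h, 1.51 and 2.97 at 8h, and -0.72 and 1.04 at 24h. Replicate 1 was the lower in every group, and the 24h arrays lay below all others. Oas1a fell by 2.99 ± 0.65 from 0h to 24h, or 7.94-fold (SE, n = 2, limma adjusted p = 0.00781), with -2.84 on its second probe. The call was lost without replicate 1 of 24h or replicate 2 of 0h (adjusted p up to 0.0749). Only the block called its rise from DMSO to 0h (1.04, limma adjusted p = 0.0376), its change at 8h (-0.91, limma adjusted p = 0.0479) and its difference from DMSO at 24h (-1.95, limma adjusted p = 0.00161).

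Oasl2 was brightest in DMSO, at -2.67 and -3.09, against -4.55 and -4.41 at 0h and -6.73 and -5.97 at 24h, where it was not well above background on either array. It was therefore at least 3.29-fold lower at 24h than in DMSO (limma adjusted p = 0.00126), which held without each array in turn. Here and elsewhere in the text, such a bound sets the bright group's mean against a mean over the dim arrays. On each dim array it takes the lowest signal well above background, or the gene's own signal where that is higher. Against 0h the bound was at least 1.08-fold lower (limma adjusted p = 0.00999), a call lost without replicate 1 of 24h or replicate 2 of 0h (adjusted p up to 0.0938) and with normexp background correction (adjusted p = 0.192). Its change of -1.60 from DMSO to 0h was called only with the block (limma adjusted p = 0.0359).

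Rsad2 (viperin, an enzyme that makes a chain-terminating nucleotide) cleared the background on both 24h arrays, on 1 DMSO array and on none of the others. Its signal was -1.96 and -3.83 at 24h and -5.20 and -5.82 at 0h. At 24h Rsad2 was thus at least 4.89-fold higher than at 0h. It passed the filter only through the group in which it is high and so had to differ, and the fit's limma adjusted p of 0.0142 is given as a description (up to 0.125 without replicate 1 of 24h or replicate 2 of 0h). Its difference from DMSO was 1.63 ± 0.64. Cxcl10, a chemokine that draws T cells, was at -5.11 and -5.13 in DMSO, well above background on neither array, -4.39 and -4.12 at 0h, and -2.38 and -3.74 at 24h. It was at least 3.67-fold higher at 24h than in DMSO (limma adjusted p = 0.0102), a call lost without replicate 1 of either group (adjusted p up to 0.0750) and with normexp correction (adjusted p = 0.115). Its change of 1.20 from 0h to 24h was called only with the block (limma adjusted p = 0.0436).

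Eif2ak2 encodes PKR, the kinase that halts translation on double-stranded RNA. It measured -0.96 and -1.09 in DMSO, -0.36 and -0.48 at 0h, and -1.33 and -1.25 at 24h, which did not overlap. Eif2ak2 fell by 0.86 ± 0.16 from 0h to 24h (SE, n = 2, limma adjusted p = 0.00319), also without each array in turn, and its rise of 0.60 from DMSO to 0h was called only with the block (limma adjusted p = 0.0235). Ifi35, an adaptor of the response, was -0.56 and -0.09 at 0h, -2.05 and -0.88 at 8h, and -1.97 and -1.23 at 24h. Ifi35 fell by 1.27 ± 0.36 from 0h to 24h (limma adjusted p = 0.0291), a call lost without either 0h array or replicate 1 of 24h (adjusted p up to 0.218), and the block also called 8h (-1.14, limma adjusted p = 0.0135) and 24h against DMSO (-1.02, limma adjusted p = 0.0164).

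Gbp2, a guanylate-binding protein of cell-autonomous defence, stood at -2.18 and -1.90 in DMSO, -3.14 and -3.07 at 0h, and -4.06 and -3.42 at 24h. Both DMSO arrays were above every other array. At 24h the difference of Gbp2 from DMSO was -1.70 ± 0.26 (SE, n = 2, limma adjusted p = 0.00368), also without each array in turn, and its change of -1.06 at 0h was called only with the block (limma adjusted p = 0.0260).

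The remaining effectors were called only with the block, or not at all. Samhd1, a dNTP hydrolase, was lower at 8h (-0.49, limma adjusted p = 0.0245) and 24h (-0.39, limma adjusted p = 0.0362), and its second probe gave -0.30 and -0.27. Adar, the RNA editing enzyme, was lower at 24h against 0h (-0.38, limma adjusted p = 0.0319) and against DMSO (-0.56, limma adjusted p = 0.00971), but its second probe gave 0.07 and 0.34. Ifi27 ranged from -4.61 to -1.82, with replicate 1 the lower in every group, and its change at 24h, when 1 of the 2 arrays was well above background, was -0.98 ± 1.1 (limma adjusted p = 0.601, with the block 0.0279). The RNA-binding protein gene Ifit2 was well above background on 12 arrays and differed by 0.94 ± 0.33 between 24h and 0h (limma adjusted p = 0.0634). Rtp4, a receptor transporter gene, lay between -5.15 and -3.61. Ifit1 and Ifit3, partners of Ifit2 in binding viral RNA, were well above background on 0 arrays.

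Of the 9 antigen presentation genes, all were tested. B2m encodes the light chain that every MHC class I molecule needs. It measured 2.03 and 2.33 in DMSO, 3.10 and 2.80 at 0h, 2.67 and 2.56 at 8h, and 2.83 and 2.64 at 24h. The DMSO arrays lay below the arrays of every other group. B2m was 0.77 ± 0.15 higher at 0h than in DMSO (SE, n = 2, limma adjusted p = 0.0230), and 0.55 ± 0.15 higher at 24h (limma adjusted p = 0.0373). The first call was lost without either 0h array or replicate 1 of DMSO (adjusted p up to 0.176), and the second without replicate 1 of either group (up to 0.259) and with normexp correction (0.0656).

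The MHC class I heavy chain genes H2-K1, H2-D1 and H2-T23 were called only with the block. H2-K1 read 2.28 and 1.96 in DMSO, 1.65 and 0.94 at 0h, 1.59 and 1.14 at 8h, and 2.57 and 2.17 at 24h. Within each slide, 0h lay below DMSO and 24h above 0h. Its change was -0.83 ± 0.36 from DMSO to 0h (limma adjusted p = 0.270, with the block 0.00278) and 1.07 ± 0.36 from 0h to 24h (0.0574, with the block 0.000169), with -0.94 and 0.99 on its second probe. The 24h arrays differed from DMSO by 0.24 ± 0.36 (limma adjusted p = 0.757). H2-D1 changed by -0.52 and 0.47 over the same steps (limma adjusted p with the block 0.0137 and 0.00773), and H2-T23, a non-classical gene, by -0.49 and 0.66 (0.0284 and 0.00252). Class I genes are close relatives, so a probe may also take up RNA of a neighbour in the family.

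Tap1 and Tap2 encode the transporter that brings peptides into the endoplasmic reticulum. Tap1 measured -2.86 and -3.19 in DMSO, -4.30 and -4.36 at 0h, -4.00 and -4.39 at 30m, -3.97 and -4.55 at 1h, -4.39 and -4.50 at 2h, -5.19 and -5.01 at 4h, -5.33 and -5.02 at 8h, and -3.56 and -3.11 at 24h. It was not well above background on the arrays of 4h and 8h, and DMSO and 24h overlapped at the top. Tap1 was 2.48-fold lower at 0h than in DMSO (-1.31 ± 0.24, SE, n = 2, limma adjusted p = 0.0196), and rose by 1.00 ± 0.24 from 0h to 24h (limma adjusted p = 0.0121). The 24h difference from DMSO was -0.31 ± 0.24 (limma adjusted p = 0.464). At 8h it was at least 1.54-fold lower than at 0h, called only with the block (limma adjusted p = 0.0327). The drop was lost without either 0h array or replicate 1 of DMSO (adjusted p up to 0.145), and the rise without either 0h array or replicate 2 of 24h (up to 0.0801). Tap2 was called only with the block, at 0h against DMSO (-0.64), 8h (-0.70) and 24h against DMSO (-0.49), with limma adjusted p = 0.0112, 0.00653 and 0.0218.

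Tapbp encodes tapasin, which holds empty class I molecules at the transporter. Its signal was 0.73 and 0.41 in DMSO, 0.93 and 0.71 at 0h, 0.91 and 0.83 at 4h, -0.32 and 0.23 at 8h, and -0.68 and -0.74 at 24h. Arrays of 8h and 24h lay below those of all other groups. Tapbp fell by 0.87 ± 0.20 at 8h (limma adjusted p = 0.0311) and by 1.53 ± 0.20 at 24h (limma adjusted p = 0.000601), and was 2.43-fold below DMSO at 24h (limma adjusted p = 0.00392). The 24h calls held without each array in turn, while that at 8h was lost without either 0h array or replicate 1 of 8h (adjusted p up to 0.275).

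Psmb8 and Psmb9 encode catalytic subunits of the immunoproteasome, which cuts the peptides. Psmb8 was -3.18 and -2.85 in DMSO, -3.61 and -3.75 at 0h, -5.12 and -3.88 at 8h, and -4.74 and -4.31 at 24h, with both 24h arrays below those of DMSO and 0h. The probe was well above background on 1 of the 2 arrays at 8h and at 24h, so the values there lie partly at background. It was 2.84-fold below DMSO at 24h (-1.51 ± 0.33, SE, n = 2, limma adjusted p = 0.0165), a call lost without either DMSO array or replicate 1 of 24h (adjusted p up to 0.153). Against 0h its change of -0.84 was called only with the block (limma adjusted p = 0.0456). Psmb9, which starts beside Tap1, differed by 0.12 ± 0.29 between 24h and 0h and by -0.61 ± 0.29 between 24h and DMSO, and neither was called (limma adjusted p = 0.840 and 0.220).

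A further list of 85 pathway genes, of which 62 were tested, gave the setting in which these genes moved, and values are given for up to 5 in each direction, by size. At 24h against 0h, 9 were higher and 9 lower (29.0%, beside 23.7% of all genes). With the block, 15 were higher and 15 lower, beside 39.5% of all genes. Among the receptor and kinase genes, Ifnar1, a chain of the type I interferon receptor, rose by 1.56 ± 0.29 (SE, n = 2, limma adjusted p = 0.00355), after 1.31 ± 0.29 at 8h (limma adjusted p = 0.0263), and stood 1.69 ± 0.29 above DMSO at 24h (limma adjusted p = 0.00601). Of the chains of the interferon gamma receptor, Ifngr1 was higher and Ifngr2 lower. The transcription factor gene Irf5 rose by 2.05 ± 0.50 (limma adjusted p = 0.0141) and Nfkb1 by 1.75 ± 0.40 (limma adjusted p = 0.0100).

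The sensing genes of this second list were split. Cgas, which encodes the DNA sensor, and the adaptor genes Myd88 and Traf3 were higher at 24h, while Mavs, whose product relays the signal of RIG-I, fell by 1.01 ± 0.20 (limma adjusted p = 0.00466), and Zbp1, a sensor of left-handed nucleic acid, by 2.18 ± 0.71 (limma adjusted p = 0.0498, with 1 of the 2 arrays at 24h well above background). At 4h only Mavs was called among the 62 (-0.91, limma adjusted p = 0.0386), 1.61% beside 3.19% of all genes. Ddx58 was called there only with the block. Of 19 tested further interferon targets, 0 were higher and 3 lower at 24h by limma, Gbp3, Oas2 (-2.42) and Ly6e (-1.18). That is 15.8% beside 23.7% of all genes. With the block 1 was higher and 7 lower, beside 39.5% of all genes. In antigen presentation, Cd74, the invariant chain of MHC class II, rose by 0.99 ± 0.24 and the immunoproteasome subunit gene Psmb10 by 0.95 ± 0.26, while Calr, a chaperone of class I molecules, fell by 1.07 ± 0.20 (limma adjusted p = 0.0135, 0.0248 and 0.00424), and Pdia3 and Psme1 were also lower. Psmb10 had been lower at 0h than in DMSO (-1.24 ± 0.26, limma adjusted p = 0.0326). It alone of the 62 was called there, 1.61% beside 3.5% of all genes. At 8h Ifnar1 was higher and Gbp3, Ly6e, Calr and Socs1 lower, 8.06% of the 62 beside 6.65% of all genes. Against DMSO, Irf5, Ifnar1, Ifngr1, Traf3 and Myd88 were higher and Oas2, Gbp3 and Irgm1 lower at 24h, 12.9% beside 11.4% of all genes. Both shares are near the background.

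Interferon genes themselves gave little signal. Ifnb1 and Ifng were well above background on 0 arrays and Ifna4 on 1, while Ifnl3 was so on 16 and ranged from -1.35 to -0.52. In these bulk samples, fewer cells with a transcript and less transcript per cell cannot be told apart.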

How the data were processed

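The authors hybridised RNA of 16 samples to Agilent mouse arrays in 1 colour and read them with Agilent Feature Extraction 11.0.1.1, per the file headers, with probes annotated on mm9. The deposited intensity of each spot is the processed signal, which the scanner software had corrected for background, per the file headers. The labels name Cy5, while the scanner files hold the green channel. The deposited value table holds the same intensities, unscaled and linear. Each of its columns matched 1 scanner file at 100% of spots (within 0.6%, next best at most 4.99%), and for 8 arrays this is another sample than the attached one. Its record was used, a choice made with the data in view, under which slide and replicate number are the same division.

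From there, control spots and outlier spots (147 to 240 per array) were left out, log2 signals were set to each array's 75th percentile (445 to 660), and spots of a probe were averaged. Probes were named through RefSeq (27656 of 55681 matched 1 gene). A gene entered the test if, in at least 1 group, its brightest probe cleared the background (over 0.5 of its spots flagged as well above it) on the pair of arrays. limma 3.58.1 in R 4.3.3 fitted 8 group means (8 residual degrees of freedom), with Benjamini-Hochberg adjustment within each comparison over 15659 genes. Same-numbered arrays deviated together (correlations of 0.33 to 0.66 over 28 pairs of groups) and share a slide, per the file headers, so the numbers pair them and the blocked values are given.

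All called members are given in full, together with every other listed gene that has a probe, and the further pathway genes by size. The members and lists were chosen with earlier results of these data known. With 2 arrays per group, their number limits the precision. Alternatives were median centring, normexp correction, no filter, value table signals, the block, the mean of probes, the scanner attachment, fits of the compared groups alone and leaving out each array.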

Additional observations from a re-analysis of the deposited data

How the results depend on the processing

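The counts at 30m, 1h and 2h were 0 under every alternative run. Median centring gave 2 called genes for 0h against DMSO (2 higher, 0 lower), in place of 6. It gave 1 at 8h (1 higher, 0 lower), in place of 2, and 2 higher and 10 lower at 24h against 0h. Over all genes it called 228 higher and 33 lower, 250 higher and 226 lower, and 797 higher and 1351 lower in these comparisons. That scaling moved the median of all genes by more than 0.1 only at 2h (-0.14). Normexp background correction gave 10 genes for 0h against DMSO (4 higher, 6 lower), 1 at 4h and 4 at 8h. Over all genes it called 389 higher and 294 lower, 255 higher and 241 lower, and 544 higher and 582 lower there. Without the filter on dim probes 1 gene was called at 8h, beside 378 higher and 312 lower among all 20972 genes. Of the 35 calls, 12 were lost with median centring, 5 without the filter, 3 with normexp and 26 in fits of the compared groups alone. The replicate block gave 16, 5, 15, 27 and 17 genes for 0h against DMSO, 4h, 8h and 24h against 0h, and 24h against DMSO, and it changed none of the 35 calls. Fits of the compared groups alone gave 0, 0, 9 and 0 for 0h against DMSO, 8h, 24h against 0h and 24h against DMSO. They have fewer arrays behind the spread. Over all genes they called 0 for 0h against DMSO and 0 at 8h. At 24h they called 805 higher and 728 lower against 0h, and 1 higher and 0 lower against DMSO. Leaving out 1 array gave 0 to 4, 0 to 1, 0 to 10, 8 to 16 and 4 to 12 genes for the same comparisons as the block, and 61 of 140 gene results lost their call. Counts over all genes also moved with the array left out. Where leaving out 1 array leaves a group with 1 array, that array is assumed to vary like the others.

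With samples as attached to the scanner files the counts were 0 for 0h against DMSO, 1 at 4h and 1 at 8h. They were 0 at 24h against 0h and 0 at 24h against DMSO. Over all genes, 6 were higher and 0 lower for 0h against DMSO, and 289 higher and 15 lower at 4h. The numbers were 355 and 33 at 8h, 310 and 21 at 24h against 0h, and 237 and 15 at 24h against DMSO. By that record DMSO and 0h lie on slide 1 and 4h, 8h and 24h on slide 2. Time and slide cannot be told apart in the comparisons of these later groups. Signs then reversed for Ddx58 (0.17 for 0h against DMSO, -0.63 at 4h, -0.30 at 8h, -0.32 at 24h), Stat2 (0.41 at 4h, 0.55 at 8h, 0.49 at 24h), Irf9 (0.25 at 4h, 0.34 at 8h, 0.050 at 24h, 0.080 against DMSO) and Irf1 (0.19 at 24h). They also reversed for Trim25 (-0.13 at 4h), Parp14 (-0.13 at 8h, -0.12 at 24h against DMSO), Dtx3l (-0.59 at 8h, -0.53 at 24h), Bst2 (-0.034 at 8h), Oas1a (0.58 at 8h), Ifi35 (0.22 at 8h) and Ifi27 (1.36 at 24h). Among presentation genes they reversed for H2-K1 (-0.13 at 24h), H2-D1 (-0.46 at 4h, -0.39 at 24h), H2-T23 (-0.079 at 24h), Tap1 (0.044 at 8h) and Tap2 (0.14 at 8h, 0.12 at 24h against DMSO). Ifi27 at 24h also reversed without 0h replicate 2, and over the 4 arrays left out in turn it ran from -1.98 to 0.029. The value table signals and the mean of probes changed none of the 35 calls, and the cause of the other changes was not tested.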
